A study of Mus musculus with 23 samples.

Results

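The comparison of pre-metastatic liver with control liver was described here across the genome, by pathway and gene class. Its members are the 14 liver libraries of a series of 23 libraries: 9 pre-metastatic livers and 5 control livers, with the 9 primary tumors used only to trace tumor RNA in the livers. All mice were male BALB/c, aged 4 to 6 weeks when they were divided into the groups. In the pre-metastatic group, CT26 cells, a mouse colon carcinoma line and the only tumor line used, had been injected under the serosa of the cecum, and in the control group the sham injection was serum-free culture medium alone. All livers were collected 3 weeks after the injection, each from 1 mouse. Both groups thus shared the operation, the strain and the range of starting ages, and differed in the injected cells. The age of each mouse is not given. Of 48895 genes in the table, 16987 had at least 10 counts in at least 5 of the 14 livers and were tested. A gene is called higher or lower where edgeR's quasi-likelihood test gave an adjusted p (Benjamini-Hochberg over all 16987 genes) under 0.05, changes are log2 of pre-metastatic over control ± SE, and levels are RPKM, the count scaled by gene length and library total.

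The liver makes most plasma proteins, clears ammonia as urea, burns or stores fat according to the feeding state, and makes and exports cholesterol and bile acids. Its hepatocytes divide this work along the lobule, with urea production and amino acid breakdown on the portal side and glutamine synthesis and much of drug metabolism around the central vein. PPAR alpha drives fat burning in fasting, the SREBP factors drive the synthesis of cholesterol and fatty acids, and STAT3, downstream of IL-6, drives the acute-phase response, in which hepatocytes secrete serum amyloid, fibrinogen and other defence proteins. Pre-metastatic means a liver of a tumor-bearing mouse before metastases are seen. These are bulk libraries, in which fewer cells of a type and less RNA per cell cannot be told apart.

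The liver libraries held 44587556 to 79773163 counts, and the first principal component (36.9% of the variance) set the 5 control livers, at -73.9 to -55.3, apart from the 9 pre-metastatic livers, at 9.49 to 54.1. Hepatocyte markers were at high levels in both groups, with *Alb* (albumin) at 21749 to 30271 RPKM in control and 15822 to 46034 RPKM in pre-metastatic liver. The labels give no batch. On 6 genes of the circadian clock the livers fell into an early phase (4 control and 5 pre-metastatic livers) and a late phase (control liver 7 and pre-metastatic livers 1, 2, 10 and 12). List counts that moved by over 1.5 times and by more than 1 member within the early phase are given with that value. Pre-metastatic liver 6 stood apart in the median of 7 genes that were at 50 RPKM or more in the median tumor and at most 0.1 RPKM in every control liver, among them *Krt20*, a keratin of gut epithelium, and *Anln* and *Fam64a* of cell division. Their median level there was 1.70% of that in the tumors, against 0.0430% to 0.344% in the other 8 pre-metastatic livers. The control livers were at 0.0673% to 0.0859%, low by the rule that chose the genes, so they are no baseline here. A chemokine gene among the 7 was instead highest in liver 8, at 2.20% of its tumor median. Without liver 6 the fit called 2975 genes higher and 2254 lower, and the list counts below that move by more than 2 members without it are given with that value.

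Of the 16987 genes, 3009 were called higher in pre-metastatic liver (17.7%) and 2261 lower (13.3%), together 31.0%. With each library scaled by its total alone, the balance turned to 2377 higher and 2796 lower, so that 57.1% of the calls were rises under the main scaling and 46.0% under totals. A change of at least 1 on the log2 scale was reached by 1610 of the rises (9.48% of the genes tested) and 439 of the falls (2.58%). The groups did not overlap in RPKM for 824 genes that were higher (4.85%) and 1035 that were lower (6.09%). Falls made up a larger share among well expressed genes. Under 1 RPKM on average, 1228 of 6093 genes were higher and 326 lower, whereas from 10 to 100 RPKM 467 of 3307 were higher and 868 lower. Among the 660 genes at 100 RPKM or more, 130 were higher and 188 lower. The count minimum can be met by 5 of the 9 pre-metastatic livers but, in control liver, only by all 5. Genes of few counts thus entered more easily where they were high in pre-metastatic liver, which favours rises at the lowest levels. By gene type, 2734 of 13803 protein-coding genes were higher and 1943 lower, while 15 of 490 pseudogenes were higher and 61 lower.

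**Figure D1:**
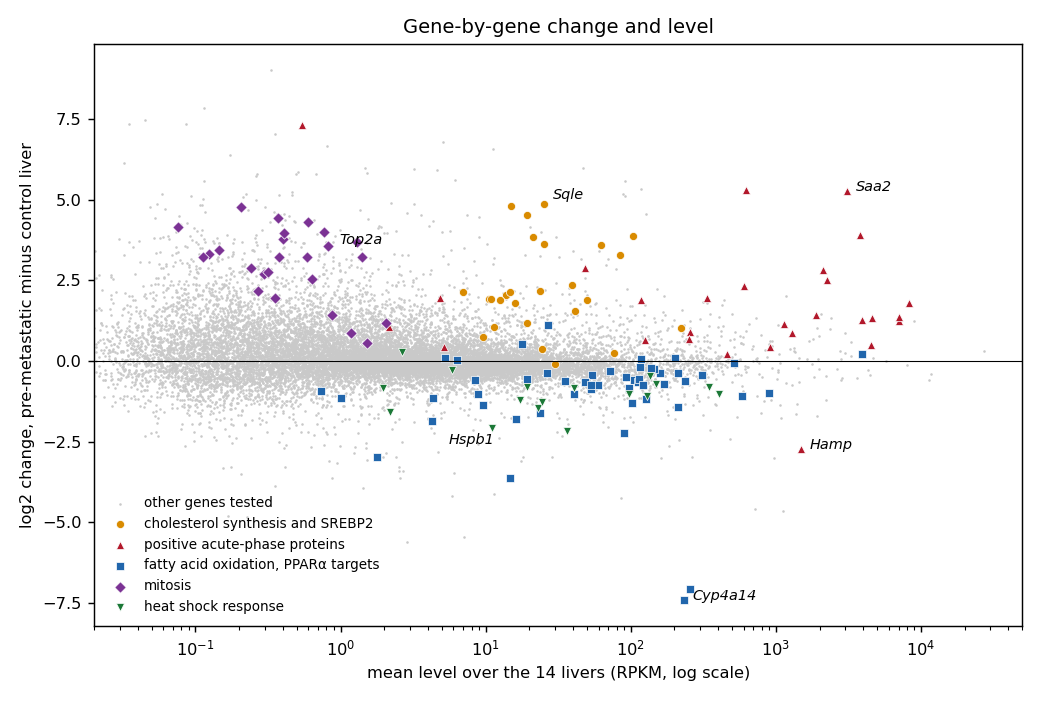
Each point is 1 of the 16987 genes tested, with its mean level over the 14 livers (RPKM, log scale) on the horizontal axis and its log2 change, pre-metastatic minus control liver, on the vertical axis. Of the 5 coloured lists, cholesterol synthesis (orange circles) lies mostly above 0, acute-phase proteins (red triangles) above 0 apart from *Hamp*, mitosis (purple diamonds) above 0 at low levels, and fatty acid oxidation (blue squares) and heat shock genes (green triangles) mostly below 0.

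The largest rises came from unrelated gene families. *Crybb3* (chr5:113075839-113082233, a beta-crystallin known from the lens) stood at 0.0831, 0.120, 0.148, 0.305 and 0.310 RPKM in the 5 control livers and from 10.1 to 35.4 (median 13.6) RPKM in the 9 pre-metastatic livers, a log2 change of 6.56 ± 0.46 (adjusted p = 1.4e-06). Every pre-metastatic liver was thus above every control liver by a wide margin. *Prtn3*, a serine protease of granulocyte precursors, rose by 5.99 ± 0.44 (adjusted p = 1.4e-06), from 0.766, 1.10, 1.22, 1.45 and 1.59 RPKM in control liver to 26.8 to 109 RPKM. Its level was far above that of other granule genes of such precursors, *Elane* being at 0.0975 to 3.97 RPKM and *Mpo* at 0.141 to 4.67 RPKM in pre-metastatic liver. The chemokine *Cxcl14*, the pacemaker channel gene *Hcn3* and the fatty acid binding protein *Fabp5* rose by 5.96, 4.86 and 5.17. *Gm6166*, annotated as a pseudogene, ran beside *Fabp5* (1.94, 3.78, 4.05, 5.12 and 5.51 RPKM for *Fabp5* and 2.48, 4.05, 4.52, 4.68 and 6.08 RPKM for *Gm6166* in control liver), and reads shared between similar sequences cannot be assigned with certainty. Others among the 15 largest rises were the lncRNAs *Gm32006*, *Gm32872* and *Gm39583*, at medians of 1.31, 5.54 and 2.01 RPKM in pre-metastatic liver, and *Scd1*, *Orm2*, *Saa2*, *Sqle* and *Thrsp*, which belong to the programs below.

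The largest falls were more of a kind, since 6 of the 15 were cytochrome P450 genes. *Cyp4a14* and *Cyp4a10*, omega-hydroxylases of fatty acids and classical targets of PPAR alpha, were abundant in the control livers. *Cyp4a14* was at 356, 407, 638, 718 and 1109.7 RPKM in control liver and from 0.296 to 15.2 (median 1.18) RPKM in pre-metastatic liver, a log2 change of -7.40 ± 0.83 (adjusted p = 4.5e-05). *Cyp4a10* was at 286, 643, 857, 862 and 899.8 RPKM and from 1.21 to 11.2 (median 3.11) RPKM, a log2 change of -7.06 ± 0.60 (adjusted p = 6.1e-06). No pre-metastatic liver came near the lowest control liver for either gene. Both lie in the Cyp4a cluster of chromosome 4, between *Cyp4a12b* (chr4:115411624-115439034) and *Cyp4a31* (chr4:115563626-115579015). There, *Cyp4a31* and *Cyp4a32* were also called lower, with log2 changes of -2.98 and -1.61, whereas *Cyp4a12a* at the other end stood at 32.9 to 79.9 RPKM in control and 1.48 to 152 RPKM in pre-metastatic liver and was not called (log2 change 0.79 ± 0.61, adjusted p = 0.34). *Cyp2b10* and *Cyp3a11*, drug-metabolizing enzymes induced through the receptors CAR and PXR, changed by -5.47 and -3.0, and the steroid 17-hydroxylase gene *Cyp17a1* by -4.13. *Apoa4*, an apolipoprotein of triglyceride-rich particles, was at 302, 2008, 3469, 4347 and 4450.3 RPKM in control and 59.2 to 213 RPKM in pre-metastatic liver (log2 change -4.65 ± 0.48). The antisense gene *ENSMUSG00000074373.6* and the neighbouring *ENSMUSG00000111282.1* overlap *Apoa4* on the other strand (chr9:46240844-46243458 for *Apoa4*) and changed by -4.60 and -4.24, and since the kit does not mark strand their reads and those of *Apoa4* cannot be told apart. The others were *Krt23*, a keratin (1.81 to 7.98 RPKM in control and 0.0808 to 0.831 RPKM in pre-metastatic liver), the acyl-CoA thioesterase *Acot1*, the lipid droplet gene *Cidec*, the organic anion carrier *Slco1a4*, the lncRNA *Gm32800* and *Gm40011*.

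**Figure D2:**
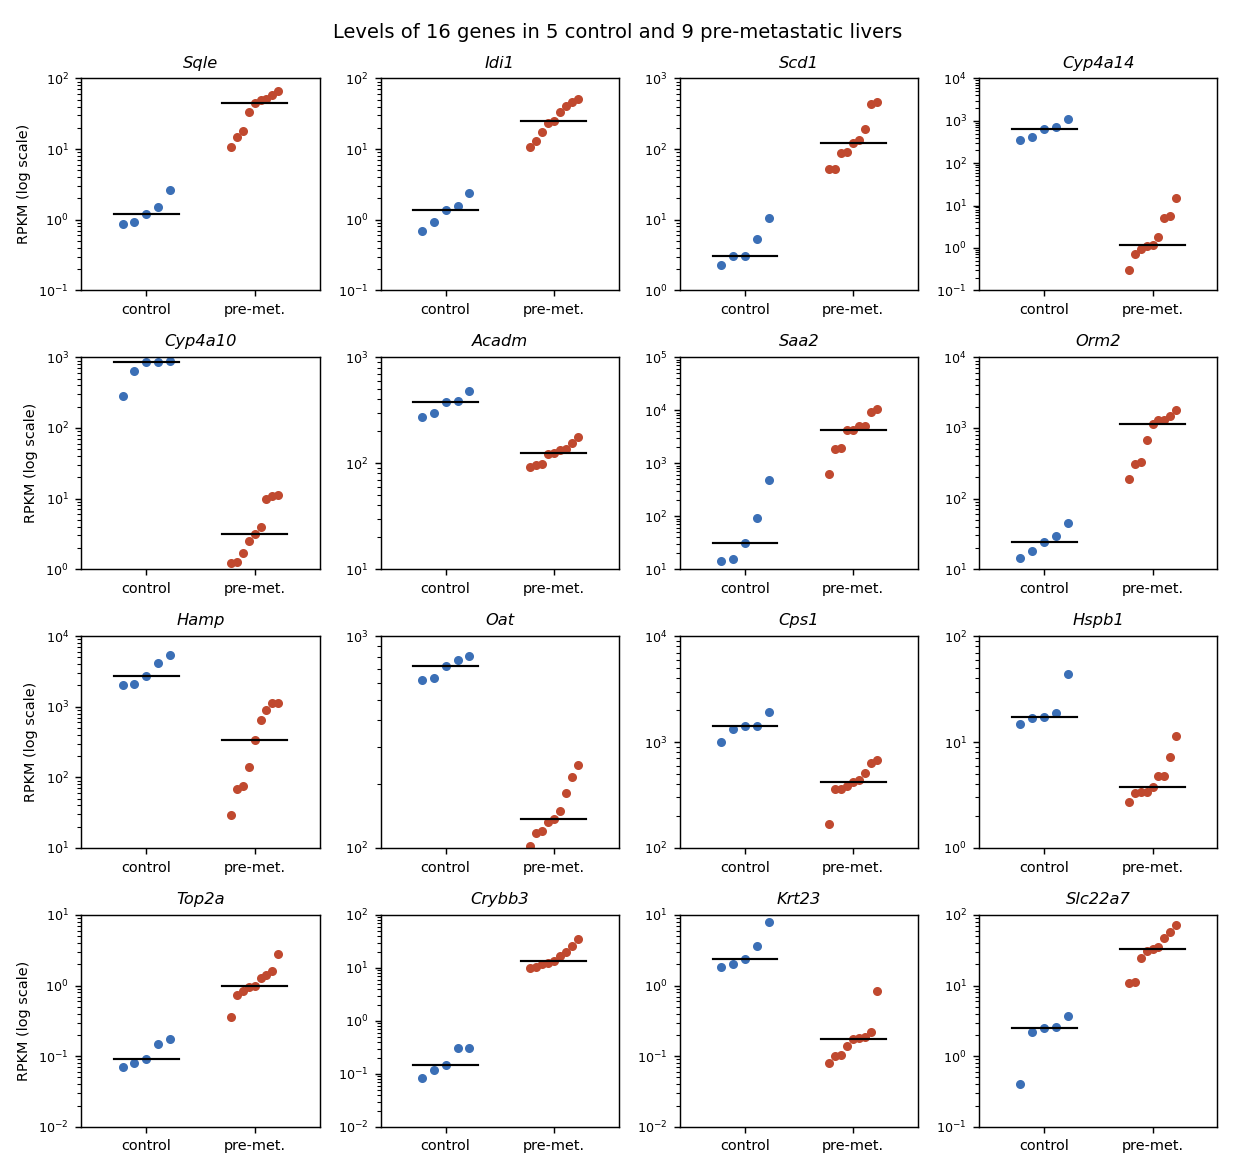
RPKM (log scale) of 16 genes, with a point for each of the 5 control livers (blue) and 9 pre-metastatic livers (red), ordered by value within a group, and a line at the group median. In all 16 panels the points of the groups do not overlap, and *Crybb3*, *Cyp4a14* and *Cyp4a10* are separated widely.

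Cholesterol synthesis was raised almost throughout: 23 of 26 tested genes of the list were called higher and 0 lower, with a median log2 change of 1.99 beside 0.01 over all genes. For 21 of the 26 the lowest pre-metastatic liver was above the highest control liver, against 4.85% of all genes. SREBP2, the product of *Srebf2*, is released from the membrane when sterols are low and turns on the whole pathway. *Sqle*, squalene epoxidase, was at 0.873, 0.934, 1.22, 1.49 and 2.66 RPKM in control liver and from 10.7 to 65.8 (median 45.1) RPKM in pre-metastatic liver (log2 change 4.88 ± 0.56, adjusted p = 4.6e-05). *Idi1*, which isomerizes the isoprene unit, was at 0.681, 0.912, 1.36, 1.55 and 2.37 RPKM and from 10.5 to 51.4 (median 25.3) RPKM (4.53 ± 0.49, adjusted p = 3.3e-05). For neither gene did the groups overlap. *Fdps*, which joins isoprene units, and *Nsdhl*, a demethylating enzyme of the sterol ring, rose by 3.86 and 3.84. *Srebf2* itself rose by 1.05 ± 0.17. *Ebp* and *Scap* were among the members that did not pass. In the early-phase livers alone 24 members were higher, with a median of 2.0.

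The sterol regulatory element, searched as TCACNCCAC on both strands in the 250 bases before the start of each gene (RefSeq windows, GRCm38.p6), was found in 1 of the 18 tested members that have a window, *Hmgcs1* (log2 change 3.27 ± 0.46), and in 1.36% of the 11507 tested genes with a window. The window of *Hmgcs1*, the cytosolic synthase early in the pathway, is shown because it holds this match (capitals), 137 bases before the start, at chr13:119690101-119690350 on the plus strand.
Hmgcs1: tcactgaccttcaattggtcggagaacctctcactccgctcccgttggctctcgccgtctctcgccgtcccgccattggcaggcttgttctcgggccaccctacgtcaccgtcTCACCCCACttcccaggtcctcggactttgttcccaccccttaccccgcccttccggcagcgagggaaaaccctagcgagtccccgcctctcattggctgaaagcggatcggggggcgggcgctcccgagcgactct

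Fatty acid synthesis was raised in part. In the lipogenesis list 13 of 29 tested genes were higher and 4 lower (median 0.53), and without pre-metastatic liver 6 the counts were 14 and 2. Leaving out control liver 1, 4 or 6 or pre-metastatic liver 1 also gave 2 lower. *Scd1*, the desaturase that makes oleate, was at 2.27, 3.01, 3.06, 5.28 and 10.5 RPKM in control and from 52.5 to 469 (median 120.0) RPKM in pre-metastatic liver (log2 change 5.32 ± 0.74, adjusted p = 1.5e-04). *Thrsp*, a lipogenic nuclear protein, rose by 4.56 ± 0.84, and within the early phase by 2.80. *Fasn*, fatty acid synthase, rose from 5.08 to 14.7 RPKM to 17.7 to 113 RPKM (2.41 ± 0.51), *Acaca*, the carboxylase before it, by 1.66 ± 0.28, and their regulator *Srebf1* by 2.07 ± 0.27. The glucose-sensing factor gene *Mlxipl* rose by 0.53 ± 0.16. The falls in the list were *Elovl2*, *Insig2*, *Dgat1* and *Nr1h3*, at -1.16, -1.14, -1.0 and -0.24, which elongate polyunsaturated fatty acids, retain SREBP in the membrane, close triglyceride synthesis and sense oxysterols in that order.

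Genes of fat burning moved the other way. Of 51 tested genes of fatty acid oxidation and PPAR alpha targets, 30 were lower and 0 higher (median -0.66). For 20 of the 51 every pre-metastatic liver was below every control liver, against 6.09% of all genes. *Ehhadh*, the bifunctional peroxisomal enzyme, fell by 2.24 on the log2 scale and *Acot1* by 3.62. *Acadm*, the medium-chain dehydrogenase, was at 271, 296, 381, 384 and 479.9 RPKM in control and from 92.5 to 178 (median 124) RPKM in pre-metastatic liver (-1.44 ± 0.15, adjusted p = 3.1e-05). The receptor and the mitochondrial entry step did not pass the test over all livers. *Ppara* was at 9.82, 12.7, 14.1, 15.1 and 20.9 RPKM in control and from 6.54 to 35.3 (median 17.5) RPKM in pre-metastatic liver (0.52 ± 0.35, adjusted p = 0.28), and *Cpt1a*, which admits fatty acids to mitochondria, changed by -0.58 ± 0.23 (adjusted p = 0.073), or by -0.97 within the early phase (adjusted p = 0.0056). With the clock index as a covariate 37 members were lower. A direct repeat of AGGTCA with 1 base of any kind between the copies, which PPAR alpha is known to bind, was searched on both strands. It was found in none of the 39 members with a window and in 0.0521% of all tested genes with one. With only 6 matches in 11507 windows, so few members cannot show whether such sites are rarer or more common among them.

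Some lipid droplet genes fell as well: 7 of 18 were lower and 1 higher (median -0.58). *Cidec*, which fuses droplets, went from 3.60 to 24.2 RPKM to 0.371 to 2.37 RPKM (-3.48 ± 0.43, adjusted p = 6.6e-05). *G0s2*, an inhibitor of lipolysis, and the coat proteins *Plin4* and *Plin5* changed by -2.62, -2.53 and -2.32, and the lipase gene *Pnpla2* by -1.02. Among apolipoproteins and lipoprotein genes 8 of 29 were lower (27.6%) and 5 higher (17.2%), beside 13.3% and 17.7% of all genes. The count higher was 3 without control liver 6 or 7 or pre-metastatic liver 1. Within the early phase 10 were lower and 3 higher. *Apoc2*, the cofactor of lipoprotein lipase, was at 189, 318, 463, 490.2 and 529 RPKM in control and 124 to 173 RPKM in pre-metastatic liver (-1.35 ± 0.20), and *Apoe* fell by 0.58. *Apob*, the backbone of VLDL, was at 444 to 672 RPKM and 430.4 to 652 RPKM (-0.01 ± 0.11, adjusted p = 0.96). For bile acids 6 of 27 genes were lower (22.2%) and 2 higher (7.41%). *Cyp8b1*, which sets the share of cholic acid, fell from 182, 270.0, 322, 402 and 461 RPKM to 68.0 to 127 RPKM (-1.68 ± 0.19, adjusted p = 4.5e-05), and *Abcb4*, which exports phospholipid into bile, by 1.11. *Cyp7a1*, the rate-limiting enzyme, was at 26.2 to 57.3 RPKM and 11.1 to 64.2 RPKM and was not called (-0.28 ± 0.35, adjusted p = 0.57).

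Plasma proteins made up the second broad rise. In the list of positive acute-phase proteins 23 of 28 tested genes were higher and 1 lower (median 1.35), and 21 were higher without pre-metastatic liver 6. *Saa2*, serum amyloid A2, was at 14, 15.4, 31.3, 92.5 and 473 RPKM in control and from 631 to 10433 (median 4296) RPKM in pre-metastatic liver (5.28 ± 1.06, adjusted p = 0.0018). *Saa1* had values of 34.2, 38.0, 186, 422 and 1273 RPKM and from 1544 to 10619 (median 5514) RPKM (3.90 ± 0.87, adjusted p = 0.0035). The control livers themselves differed widely in both genes, and the 2 genes are similar in sequence. *Orm2*, an acid glycoprotein, was at 14.4, 17.9, 24.4, 29.5 and 45.0 RPKM and from 189 to 1809 (median 1149.7) RPKM (5.28 ± 0.67, adjusted p = 8.1e-05), and *Apcs*, serum amyloid P, rose by 2.80 ± 0.37. *Hp*, haptoglobin, and *Crp*, which responds weakly in mice, rose by 1.25 ± 0.30 and 0.69 ± 0.16. The fall was *Hamp*, hepcidin, treated with iron below.

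Other classes of plasma proteins rose as well, though they share members with this list, such as *Fgb*. Complement genes were higher in 32 of 40 and lower in 0 (median 0.89), among them *C9* of the membrane attack complex (61.7, 101, 114, 144 and 191 RPKM in control and 235 to 578 RPKM in pre-metastatic liver, 1.82 ± 0.26) and *C3*, the central component (0.88 ± 0.19). In coagulation and fibrinolysis 20 of 38 were higher and 0 lower (median 0.55), or 14 within the early phase. *F11* rose by 1.73 ± 0.19 and *Fgb*, the fibrinogen beta chain, from 2600.4, 3314, 3898, 4057 and 4795 RPKM to values from 4733 to 13208 (median 9537) RPKM (1.37 ± 0.31), whereas thrombin's gene *F2* rose by 0.37 ± 0.12. Clade A serpins, protease inhibitors and hormone carriers, were higher in 12 of 21 and lower in 0 (median 0.72), with *Serpina10*, which inhibits factor X, at 1.80 ± 0.23. Of 14 genes that commonly fall in inflammation, 3 were higher (21.4%) and 2 lower (14.3%), near the 17.7% and 13.3% of all genes. Without pre-metastatic liver 5 the count higher was 5, and by DESeq2 it was 6. *Trf*, transferrin, rose by 1.23 ± 0.21, *Rbp4*, the retinol carrier, went from 3151, 3375, 3772, 3788 and 3873 RPKM to 1167 to 2011 RPKM (-1.21 ± 0.14, adjusted p = 5.2e-05), and *Alb* (0.31 ± 0.29, adjusted p = 0.44) and *Ttr* (0.30 ± 0.13, adjusted p = 0.095) were not called. Of the IL-6 pathway, 12 of 20 genes were higher and 0 lower, or 7 and 1 by library totals. The rises included *Osmr*, the oncostatin receptor (2.08 ± 0.36), *Socs3*, the feedback inhibitor (1.26 ± 0.21), and *Stat3* (0.73 ± 0.14), while the receptor gene *Il6ra* was not called (0.24 ± 0.26, adjusted p = 0.51).

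The STAT-type letters TTCNNNGAA, which read the same on both strands, were present before the start of 6 of 21 positive acute-phase genes with a window and of 7.59% of all tested genes with one. Those of *Fgb* (chr3:83049864-83050113, minus strand) and *Hamp* (chr7:30944030-30944279, minus strand) are shown because both hold the match (capitals) and their transcripts moved in opposite directions, 1.37 and -2.74.
Fgb: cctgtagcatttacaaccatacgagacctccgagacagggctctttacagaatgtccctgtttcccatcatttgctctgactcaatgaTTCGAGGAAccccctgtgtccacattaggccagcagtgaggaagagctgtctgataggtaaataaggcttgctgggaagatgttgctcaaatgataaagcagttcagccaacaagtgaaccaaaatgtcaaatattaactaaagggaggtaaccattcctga
Hamp: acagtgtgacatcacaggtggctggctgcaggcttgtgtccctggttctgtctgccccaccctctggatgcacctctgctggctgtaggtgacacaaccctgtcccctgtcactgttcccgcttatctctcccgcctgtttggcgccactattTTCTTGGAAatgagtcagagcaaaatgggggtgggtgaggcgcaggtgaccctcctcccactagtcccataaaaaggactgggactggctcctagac

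By their share of all counts, the positive acute-phase genes took 3.44, 4.51, 5.06, 5.20 and 6.41% of the 5 control libraries and 7.02% to 16.5% of the pre-metastatic libraries, with means of 4.92% ± 1.08 (SD, n = 5) and 11.8% ± 3.41 (SD, n = 9). Fibrinogen, transferrin, hemopexin and haptoglobin stood among the 10 most counted genes of pre-metastatic liver. Without the 10 most counted genes in members and denominator, the means were 2.98% and 7.32%. Fatty acid oxidation genes went from 2.50% ± 0.583 (SD, n = 5) to 1.36% ± 0.365 (SD, n = 9), and urea cycle genes from 1.90% ± 0.427 to 0.882% ± 0.179.

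**Figure D3:**
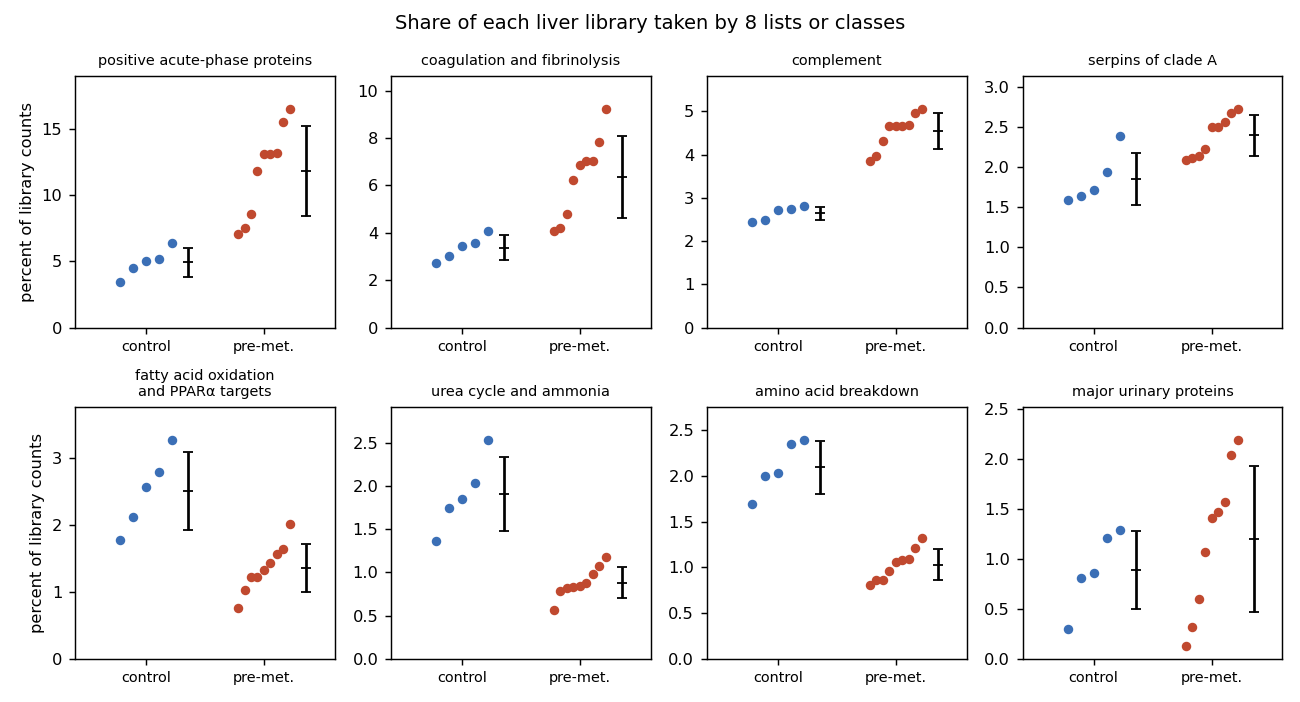
Percent of each library's counts taken by 8 lists or classes, with a point for each of the 5 control livers (blue) and 9 pre-metastatic livers (red), and the mean with its SD in black. Positive acute-phase proteins rose from a mean of 4.92% to 11.8%, urea cycle and amino acid breakdown genes took smaller shares in every pre-metastatic liver than in any control liver, and major urinary proteins overlapped.

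Genes of nitrogen metabolism were mostly lower. In the urea cycle list 8 of 13 were lower and 2 higher (median -0.81). *Cps1*, which fixes ammonia, was at 998, 1337, 1406, 1406 and 1928 RPKM in control and from 169 to 683 (median 419) RPKM in pre-metastatic liver (-1.61 ± 0.25, adjusted p = 3.5e-04). *Ass1* and *Asl*, which make and cleave argininosuccinate, changed by -1.77 ± 0.30 and -2.45 ± 0.34, and *Arg1*, which releases urea, by -1.22 ± 0.28. *Otc*, the step after *Cps1*, was at 54.3, 64.8, 65.2, 65.7 and 66.3 RPKM and from 46.2 to 98.5 (median 69.7) RPKM and was not called (0.17 ± 0.13, adjusted p = 0.35), nor was the glutamine synthetase gene *Glul* (0.15 ± 0.09, adjusted p = 0.25). For amino acid breakdown 28 of 46 were lower and 0 higher (median -0.41). *Oat*, ornithine aminotransferase, was at 624, 636, 725, 768 and 805 RPKM in control and from 102 to 246 (median 137) RPKM in pre-metastatic liver (-2.13 ± 0.14, adjusted p = 1.3e-06). *Got1*, the cytosolic aspartate aminotransferase, fell from 149, 303, 449.9, 461 and 515 RPKM to values from 15.1 to 176 (median 31.0) RPKM (-3.01 ± 0.55). Liver 6 alone reached above the lowest control value, and without it the change was -3.81. *Tat*, a glucocorticoid-induced aminotransferase, changed by -1.74 ± 0.26. Methionine and one-carbon genes moved in both directions, 9 lower and 8 higher of 25. The hepatic methionine cycle genes *Mat1a*, *Bhmt* and *Cth* changed by -1.65, -1.72 and -1.41, and *Psat1* and *Mthfd2*, of serine synthesis and mitochondrial folate, rose by 2.52 and 1.99 from levels near or under 1 RPKM. *Tdo2*, which opens the tryptophan ring, fell by 1.25.

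Sugar metabolism showed no common direction. Of 31 glycolysis genes 10 were higher and 8 lower, with a median of 0.00, or 9 and 5 within the early phase. *Pklr*, the liver pyruvate kinase, rose from 12.9, 15.1, 16.5, 16.6 and 24.2 RPKM to values from 52.0 to 184 (median 106) RPKM (2.86 ± 0.36, adjusted p = 8.1e-05). In gluconeogenesis and glycogen 6 of 26 were higher (23.1%) and 2 lower (7.69%) over all livers, beside 17.7% and 13.3% of all genes. The counts were 5 and 6 within the early phase and 6 and 5 with the clock index as a covariate. *G6pc*, which releases glucose, rose by 1.78 ± 0.58, *Ppp1r3b*, which targets phosphatase to glycogen, fell by 1.27, and *Pck1*, the gluconeogenic control enzyme, was at 194 to 1013 RPKM in control and 89.4 to 622 RPKM in pre-metastatic liver (-0.06 ± 0.44, adjusted p = 0.93).

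By place in the lobule, periportal genes were lower in 12 of 20 and higher in 2 (median -1.13), or in 1 without control liver 1, 6 or 7. Of the falls, *Cps1*, *Ass1*, *Asl*, *Arg1*, *Sds*, *Hal* and *Gls2* are also urea cycle or amino acid genes. *Cyp2f2*, a common periportal marker outside those pathways, was not called (0.38 ± 0.27, adjusted p = 0.30), and *Ctsc*, cathepsin C, rose by 1.92 ± 0.18. Pericentral genes were higher in 6 (27.3%) and lower in 5 (22.7%) of 22, beside 17.7% and 13.3% of all genes (median -0.05). *Slc13a3*, a dicarboxylate carrier, rose by 3.29 ± 0.35, *Lhpp*, a histidine phosphatase, fell from 54.8, 61.5, 68.5, 73.5 and 82.4 RPKM to 14.9 to 29.8 RPKM (-1.80 ± 0.12, adjusted p = 1.3e-06), and *Cyp2e1* was not called (-0.44 ± 0.18, adjusted p = 0.080). Among 37 hepatocyte transcription factors and nuclear receptors 13 were lower and 2 higher, and without control liver 5 8 were lower. *Hnf4a*, the central hepatocyte regulator, was at 157, 173, 264, 274 and 316 RPKM in control and from 88.2 to 168 (median 139) RPKM in pre-metastatic liver (-0.70 ± 0.20, adjusted p = 0.015), *Foxa2* changed by -1.32 ± 0.28, and *Cebpa* was not called (-0.58 ± 0.24, adjusted p = 0.075).

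Genes of drug metabolism moved in both directions. Of 45 genes in cytochrome P450 families 1 to 3, 8 were higher and 7 lower, beside 17.7% and 13.3% of all genes. Within the early phase 7 were higher and 12 lower (beside 14.4% and 10.7% of all genes), with the clock index as a covariate 7 and 11, and by library totals 6 and 11. *Cyp3a11* was at 892, 1219.7, 1245, 2359 and 5376 RPKM in control liver and from 34.1 to 725 (median 149) RPKM in pre-metastatic liver (-3.0 ± 0.59, adjusted p = 0.0015). Of the rises, *Cyp2r1*, a vitamin D 25-hydroxylase, changed by 2.21 ± 0.26. Carboxylesterases were higher in 9 of 14 and lower in 0, with *Ces1g* rising from 12, 18.8, 18.9, 31.2 and 32.0 RPKM to 43.1 to 101 RPKM (1.70 ± 0.24). Glutathione S-transferases included rises and falls, with *Gstm2* and *Gstm6* higher (1.22 and 1.62) and *Gstt2* and *Gstt3* lower (-1.76 and -1.83). UDP-glucuronosyltransferases were higher in 1 of 18 and lower in 0 over all livers, but lower in 7 within the early phase and in 8 with the clock index as a covariate. Many genes of these families are near copies, so the split of reads within a family is uncertain. Solute carriers were higher in 78 of 269 and lower in 30, or 81 and 28 without pre-metastatic liver 6. *Slc22a7*, an organic anion carrier, was at 0.407, 2.22, 2.52, 2.59 and 3.77 RPKM in control and from 10.9 to 71.9 (median 32.8) RPKM in pre-metastatic liver (4.01 ± 0.56, adjusted p = 1.4e-04).

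Genes that differ between the sexes under growth hormone control varied widely among the pre-metastatic livers. Of 16 male-predominant genes 5 were higher and 0 lower, and without liver 6 the count higher was 7. *Hsd3b5*, a male liver steroid reductase, was at 0.513, 0.684, 1.32, 1.94 and 10.7 RPKM in control and from 3.68 to 279.6 (median 155) RPKM in pre-metastatic liver (5.57 ± 1.02, adjusted p = 9.9e-04), the lowest being liver 6. Major urinary proteins, near-identical pheromone carriers of male mice, were called in 0 of 20 genes in either direction by edgeR's quasi-likelihood test, while an unadjusted p under 0.05 gave 2 higher and 0 lower, DESeq2 0 and 0, and limma-voom 0 and 0. Without pre-metastatic liver 6 the test called 2 higher. Their summed share was 0.299, 0.806, 0.862, 1.21 and 1.29% of the control libraries and 0.133% to 2.19% of the pre-metastatic ones. Female-predominant genes were lower in 4 of 19 (21.1%) and higher in 0, beside 13.3% and 17.7% of all genes. However, 4 were higher without control liver 7, and 6 were lower and 2 higher within the early phase. *Cyp2b9* was not called over all livers (-0.24 ± 1.0, adjusted p = 0.88). It stood at 93.4 RPKM in control liver 7 and at 0.810 to 3.92 RPKM in the other 4, and without that liver its change was 3.18 (adjusted p = 0.0092). *Ghr*, the growth hormone receptor, rose by 1.13 ± 0.25, *Igf1* was not called (0.33 ± 0.15, adjusted p = 0.11), and *Igfbp2*, an IGF binding protein, fell from 639, 698, 1068, 1380.2 and 1412 RPKM to 61.5 to 412 RPKM (-2.43 ± 0.42).

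Small falls ran through the protein complexes of the mitochondrion and the proteasome. Nuclear genes of complex I were lower in 30 of 44 and higher in 0, with a median of -0.29 (-0.36 by totals and -0.26 by upper quartiles). For 23 of the 44 every pre-metastatic liver was below every control liver, against 6.09% of all genes. Without pre-metastatic liver 6, 27 were lower. Complexes II to IV were lower in 18 of 27 (median -0.41), ATP synthase in 10 of 17 (-0.30) and mitochondrial ribosomal proteins in 40 of 77 (-0.25), with 0, 0 and 1 higher. Leaving out control liver 5 lowered the count for mitochondrial ribosomal proteins to 27. *Cycs*, cytochrome c, was at 46.1, 47.2, 48.6, 49.9 and 50.4 RPKM in control and from 20.5 to 33.4 (median 27.5) RPKM in pre-metastatic liver (-0.75 ± 0.09, adjusted p = 7.0e-05), and *Ndufs7*, a complex I subunit, changed by -0.76 ± 0.10. Proteasome subunits were lower in 34 of 43 and higher in 5 (median -0.47, and -0.54 by totals). *Psmc1*, an ATPase of the cap, went from 121, 123, 126, 127 and 138 RPKM to 52.9 to 90.4 RPKM (-0.79 ± 0.09, adjusted p = 4.0e-05). The 5 that rose were *Psmb8*, *Psmb9* and *Psmb10*, the catalytic subunits of the immunoproteasome (1.02, 0.83 and 0.79), and the activator genes *Psme1* and *Psme2* (0.65 and 0.37). No common change was seen in cytosolic ribosomal proteins, which were higher in 5 and lower in 5 of 83, with a median of -0.01, or -0.09 by totals and 0.02 by upper quartiles, and leaving out 1 liver gave 1 to 7 higher and 0 (without control liver 5) to 6 lower. Within the early phase 2 were higher and 1 lower, and by totals 2 and 9.

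Most heat shock genes fell, 13 of 17 lower and 0 higher (median -1.01), or 9 lower within the early phase. These chaperones refold proteins and are induced by the factor of *Hsf1*. *Hspb1*, a small heat shock protein, was at 14.7, 16.9, 17.1, 18.6 and 43.6 RPKM in control and from 2.71 to 11.4 (median 3.79) RPKM in pre-metastatic liver (-2.07 ± 0.34, adjusted p = 4.4e-04), the highest control value being liver 5. *Hspa8*, the abundant constitutive HSP70, changed by -1.03 ± 0.28, *Hsp90aa1* by -1.09 ± 0.29 and *Dnajb1*, an HSP70 partner, by -1.22 ± 0.34. *Hspa1a*, the inducible HSP70, varied widely, at 0.742, 2.07, 3.09, 3.58 and 10.3 RPKM and from 0.0561 to 4.18 (median 0.258) RPKM, and was not called (-1.57 ± 0.89, adjusted p = 0.20), nor was *Hsf1* (-0.28 ± 0.10, adjusted p = 0.052). Of the endoplasmic reticulum chaperones and unfolded protein response 4 of 25 were higher and 0 lower, but without pre-metastatic liver 7 there were 6 lower. *Hspa5*, BiP, was at 588, 664, 775, 829.8 and 1279 RPKM and from 261 to 1162 (median 357) RPKM (-0.78 ± 0.33, adjusted p = 0.086), with liver 7 the highest by far. In the integrated stress response 7 of 21 were higher and 3 lower, or 1 lower with the clock index as a covariate and 5 by DESeq2. *Chac1*, which degrades glutathione, and *Asns*, asparagine synthetase, rose by 4.33 ± 0.73 and 2.45 ± 0.57, *Ddit3*, which encodes CHOP, fell (-1.69 ± 0.49, adjusted p = 0.017), and *Atf4* was not called (-0.09 ± 0.19, adjusted p = 0.75).

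The heat shock element, searched on both strands as GAA, TTC and GAA with 2 bases of any kind between neighbours, was found before the start of 2 of the 12 heat shock genes with a window, *Hspd1* and *Hspe1*, and of 0.469% of all tested genes with one. *Hspd1* and *Hspe1*, the mitochondrial chaperonin and its lid, lie head to head, so that their windows overlap, and they changed by -0.47 ± 0.12 and -0.72 ± 0.11. The window of *Hspe1* (chr1:55087898-55088147, plus strand) holds 2 overlapping matches (capitals).
Hspe1: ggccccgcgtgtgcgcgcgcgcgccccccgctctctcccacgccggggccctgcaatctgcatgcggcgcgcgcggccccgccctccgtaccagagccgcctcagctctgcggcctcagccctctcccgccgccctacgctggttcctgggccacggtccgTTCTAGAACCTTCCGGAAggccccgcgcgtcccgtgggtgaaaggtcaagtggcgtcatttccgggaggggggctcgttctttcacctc

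Cell division genes rose from very low levels. Of 25 mitotic genes 24 were higher and 0 lower (median 3.22), and leaving out any 1 liver gave 24. Pre-metastatic liver 6, which stood apart on tumor genes, was the highest for the list, and the median without it was 2.93. *Top2a*, topoisomerase II, was at 0.0696, 0.0805, 0.0898, 0.146 and 0.177 RPKM in control and from 0.360 to 2.82 (median 0.978) RPKM in pre-metastatic liver (3.56 ± 0.48, adjusted p = 1.2e-04). *Mki67*, the Ki-67 antigen, was at 0.0442, 0.0562, 0.0973, 0.113 and 0.190 RPKM and from 0.302 to 1.53 (median 0.891) RPKM (3.22 ± 0.42, adjusted p = 1.0e-04). Both were highest in liver 6, and their medians in the tumors were 112 and 35.6 RPKM. Even the highest of these levels was far below the tumor medians, and the libraries do not show which cells carry them. In DNA replication and G1/S 19 of 26 were higher and 0 lower (median 1.45). *Ccne1*, cyclin E1, and *Mcm5*, of the replicative helicase, rose by 3.32 ± 0.40 and 2.89 ± 0.36, and *Ccnd1*, cyclin D1, from 0.983, 1.90, 2.01, 2.16 and 2.94 RPKM to 2.84 to 16.8 RPKM (2.40 ± 0.42). *Pcna*, the polymerase clamp, was not called (0.21 ± 0.11, adjusted p = 0.17). Ribosome biogenesis had 0 higher and 1 lower of 24, and *Myc* was not called (1.10 ± 0.59, adjusted p = 0.17). Markers of blood cell lineages that can divide were higher in the same livers: 10 of 12 erythroid genes, 15 of 17 monocyte and macrophage genes and 6 of 9 granulocyte precursor genes (3 without control liver 4 or 6, within the early phase, with the clock index as a covariate or by limma-voom). Summed over the list, the erythroid genes were at 218 to 486 RPKM in control and 564 to 1205 RPKM in pre-metastatic liver, the monocyte genes at 261 to 468 and 625 to 858 RPKM, and the precursor genes at 27.6 to 429 and 341 to 1813 RPKM. Most of the precursor sum came from members other than *Prtn3*, *Mpo* and *Elane*. These 3 reached at most 109, 4.67 and 3.97 RPKM in pre-metastatic liver, so the sum is no measure of precursor cells. Of the erythroid genes, *Alas2*, of haem synthesis in red cells, was at 9.79 to 16.6 RPKM in control and 13.2 to 83.7 RPKM in pre-metastatic liver. The part of these cells, and of tumor RNA in liver 6, in the mitotic levels was not tested. *Cdkn1a*, the inhibitor p21, fell (-2.38 ± 0.64, adjusted p = 0.011), with control liver 7 at 3.80 RPKM and the other 4 at 22.8 to 39.3 RPKM.

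The letters TTTGAAAC, which hold the cell cycle homology region of mitotic promoters, were found before 1 of the 20 mitotic genes with a window and before 0.843% of all tested genes with one. That gene was *Cdk1*, the mitotic kinase (2.54 ± 0.34), whose window (chr10:69352913-69353162, minus strand) has the match (capitals) 15 bases before the start.
Cdk1: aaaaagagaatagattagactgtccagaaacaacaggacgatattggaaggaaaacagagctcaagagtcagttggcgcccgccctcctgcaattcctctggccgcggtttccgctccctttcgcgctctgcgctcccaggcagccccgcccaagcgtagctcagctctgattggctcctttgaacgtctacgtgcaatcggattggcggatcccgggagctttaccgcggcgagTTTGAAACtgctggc

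Iron genes moved in both directions. Of 26 genes 9 were higher and 7 lower. *Hamp*, the hormone that closes iron export, was at 2010.0, 2108, 2756, 4133 and 5461 RPKM in control and from 29.3 to 1135 (median 337) RPKM in pre-metastatic liver (-2.74 ± 0.68, adjusted p = 0.0069). The 9 livers spread over a wide range without reaching the lowest control. *Id1*, a target of the BMP signal that also drives *Hamp*, fell from 9.28, 14.6, 15.2, 21.4 and 22.3 RPKM to 1.61 to 4.89 RPKM (-2.14 ± 0.23, adjusted p = 3.3e-05), while the ligand gene *Bmp6* was not called (-0.74 ± 0.28, adjusted p = 0.055). *Hpx*, the haem carrier hemopexin, rose by 1.80 ± 0.28 and *Tfrc*, the transferrin receptor, changed by -0.95 ± 0.26. Among secreted hormones, 7 of 24 were lower and 3 higher. *Angptl8*, a regulator of lipoprotein lipase, and *Gdf15*, a stress hormone, changed by -1.80 ± 0.51 and -1.67 ± 0.53, *Igfbp1* rose by 2.37 ± 0.72, and *Fgf21*, the fasting hormone, was at 0.930, 2.34, 4.17, 5.12 and 14.8 RPKM and from 0.811 to 30.1 (median 1.66) RPKM and was not called (0.09 ± 0.89, adjusted p = 0.95).

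Matrix genes rose more often than genes in general, and endothelial genes did not. Collagens were higher in 18 of 31 and lower in 1 (median 0.92). *Col3a1* was at 1.47, 1.75, 2.20, 2.53 and 2.81 RPKM in control and from 6.36 to 32.8 (median 14.8) RPKM in pre-metastatic liver (3.01 ± 0.35, adjusted p = 5.2e-05), *Col1a1* rose by 2.71 ± 0.39, and *Acta2*, the marker of activated stellate cells, was not called (0.49 ± 0.64, adjusted p = 0.60). In the list of matrix and TGF-beta genes of the niche 16 of 27 were higher and 1 lower, or 3 lower within the early phase. *Fn1*, fibronectin, was at 175, 184, 228, 230.2 and 244 RPKM and from 349 to 543 (median 403) RPKM (1.09 ± 0.19, adjusted p = 7.5e-04), and *Spp1*, osteopontin, rose by 2.58 ± 0.34. *Timp1* and *S100a4* were highest in liver 6, and without it their changes were 2.96 and 2.14 in place of 3.48 and 3.0. Both are also high in the tumors, at medians of 318 and 1589 RPKM, and the part of tumor RNA in their levels was not tested. Endothelial genes were higher in 4 of 27 (14.8%) and lower in 0, beside 17.7% and 13.3% of all genes. Within the early phase 2 were higher and 1 lower.

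**Figure D4:**
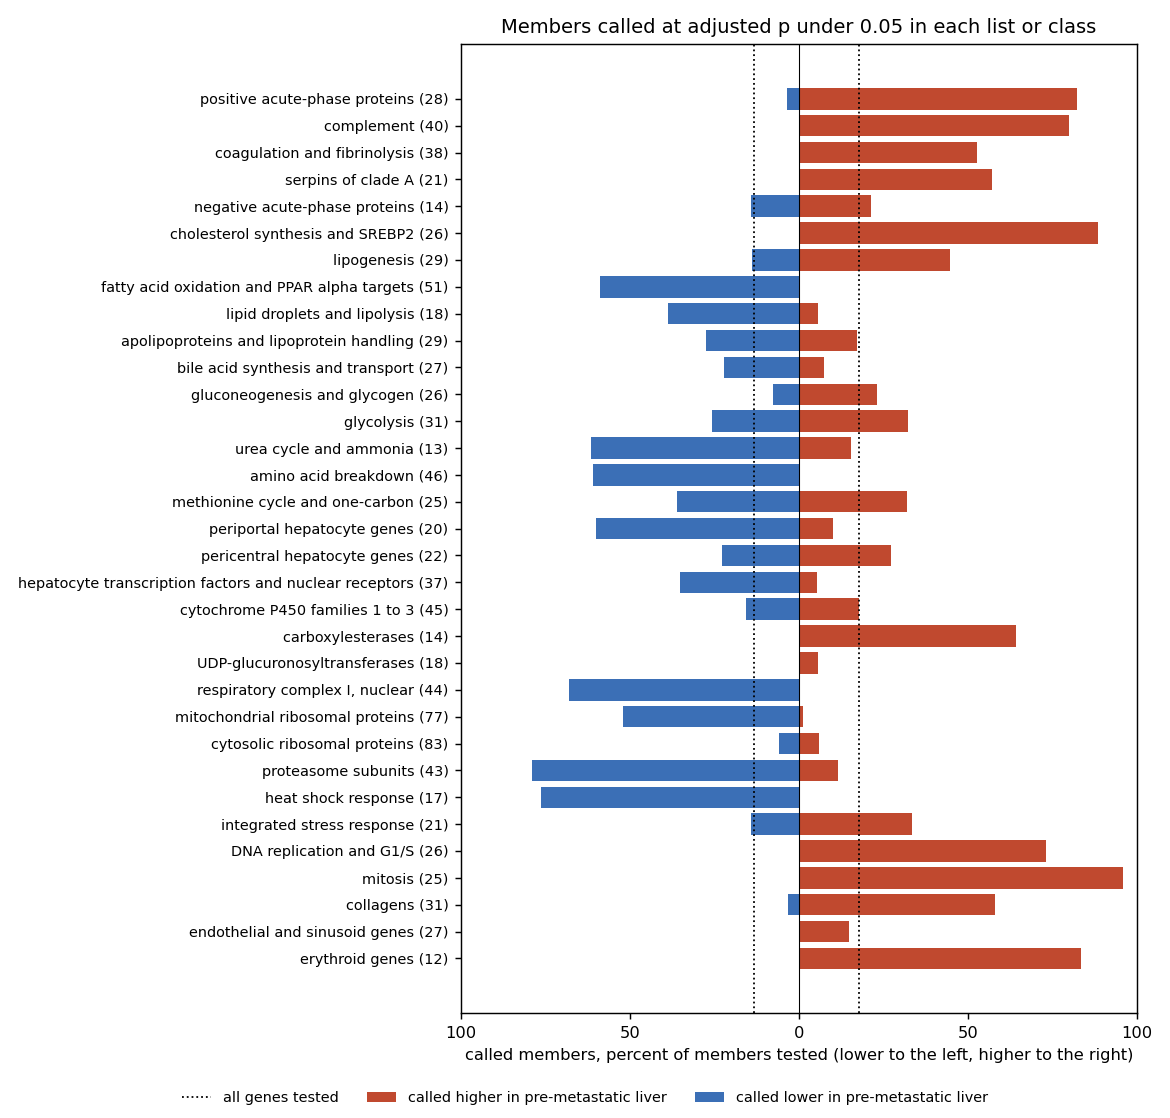
For 33 lists or classes (number of tested members in brackets), the bars give the percent of members called higher (red, to the right) and lower (blue, to the left) in pre-metastatic liver, and dotted lines mark the same for all genes tested, 17.7% and 13.3%. Cholesterol synthesis, acute-phase proteins and mitosis are among the longest bars to the right, and the proteasome, heat shock genes and complex I among the longest to the left.

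The programs differed in how evenly the 9 livers shared them. On the mean of log2(RPKM + 1) over a list, less the control mean, cholesterol synthesis ran from 1.29 to 2.45 in pre-metastatic and -0.13 to 0.21 in control livers, and fatty acid oxidation from -1.77 to -0.45 and -0.36 to 0.41. Neither overlapped. Acute-phase proteins ran from 0.91 to 1.92 and -0.52 to 0.55, lowest in pre-metastatic liver 2, which was also lowest in mitosis at 0.16. Liver 6 was highest in mitosis at 1.03, and liver 5 came next at 0.70. Heat shock genes ran from -1.76 to -0.20, so that liver 7 reached the control range of -0.21 to 0.29. Major urinary proteins had a wide spread, -2.49 to 1.64 in pre-metastatic and -1.58 to 0.77 in control livers, with pre-metastatic livers 6 and 12 and control liver 7 lowest. Over all genes the SD of log2 CPM (prior count of 2) was larger among pre-metastatic than among control livers for 67.8% of the 16987 genes.

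**Figure D5:**
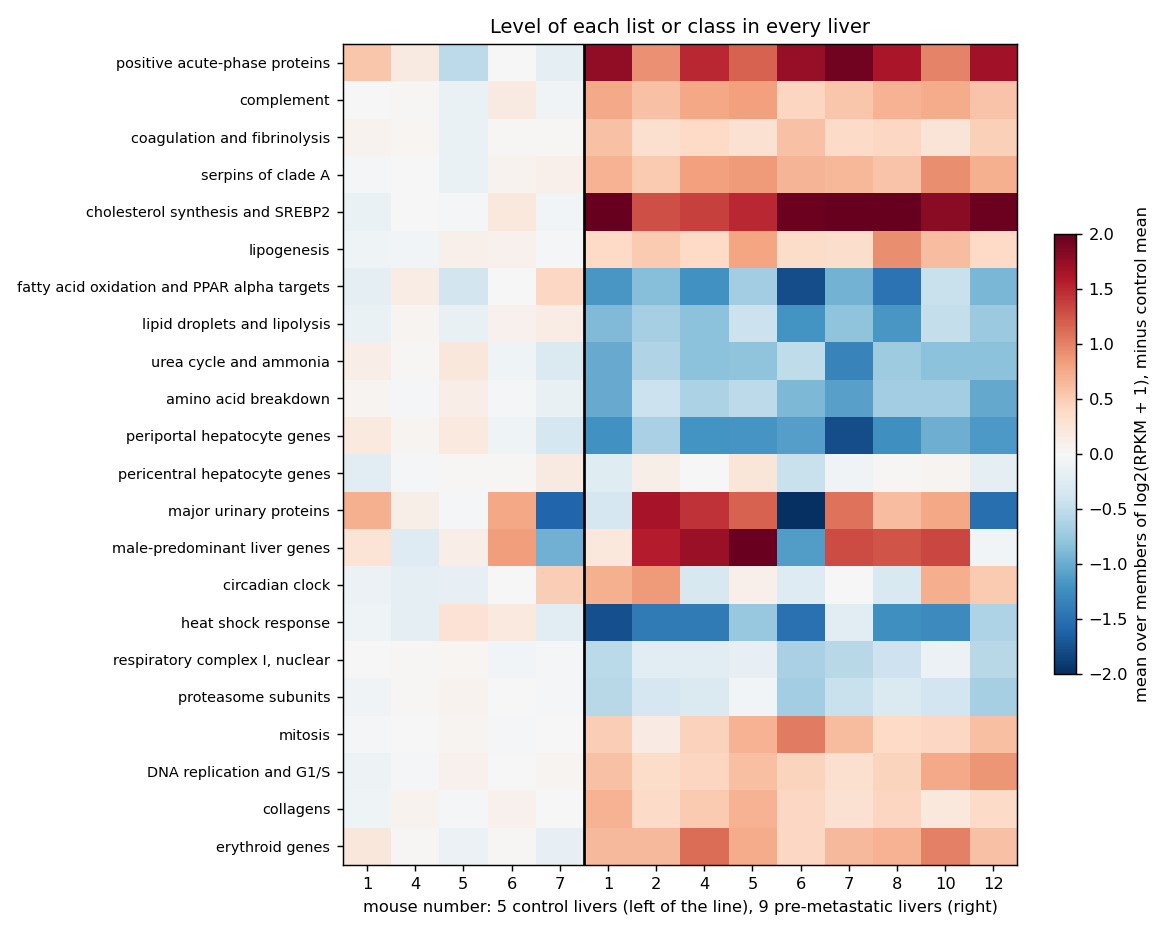
Each cell is the mean over the members of a list or class (rows) of log2(RPKM + 1) in a liver (columns, by mouse number) less the mean of the 5 control livers, coloured from blue (lower) to red (higher) within -2 and 2. Cholesterol synthesis and acute-phase proteins were higher, and fatty acid oxidation, urea cycle and periportal genes lower, in all 9 pre-metastatic livers than in the 5 control livers, whereas major urinary proteins and clock genes varied within both groups.

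Clock phase moved with the groups to some extent, since 4 of 5 control and 5 of 9 pre-metastatic livers were of the early phase. Of 20 clock genes 2 were higher and 0 lower, or 6 higher without control liver 7 and 3 higher and 5 lower with the index as a covariate, and the core activator *Arntl* was not called (-0.79 ± 0.76, adjusted p = 0.46). Within the early phase 2441 genes were higher (14.4%) and 1823 lower (10.7%), and with the clock index as a covariate 2863 and 2247. Within the early phase the list medians were 2.0 for cholesterol synthesis, -0.86 for fatty acid oxidation, 1.49 for acute-phase proteins, -1.03 for the urea cycle, -0.91 for heat shock and 3.44 for mitosis. By the same test *Cebpa*, *Cyp2e1* and *Bmp6* were lower within the early phase (-0.92, -0.77 and -1.05, adjusted p = 0.015, 0.0081 and 0.039) and *Ebp* was higher (0.35, adjusted p = 0.039). In those 9 livers *Ddit3*, *F2*, *Gdf15*, *Hist1h1c*, *Hsp90aa1*, *Insig2*, *Krt20*, *Mlxipl*, *Mpo*, *Nr1h3* and *Psme2* were no longer called, at adjusted p from 0.059 (*Psme2*) to 0.14 (*F2*), each in the direction it had over all livers.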

How the data were processed

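Poly(A) RNA libraries of 5 control and 9 pre-metastatic livers, each of 1 mouse as labelled, were compared, grouped by the labels. The submitters' processing notes name HISAT2, HTSeq 0.6.0 and mm10. The authors deposited raw read counts per gene and RPKM values per gene in the same table. Counts were tested and RPKM served for levels. The NEBNext Ultra kit does not mark strand. The genes reaching 10 counts in 5 or more of these 14 libraries were tested with edgeR 4.0.16 (TMM scaling, quasi-likelihood test, Benjamini-Hochberg adjustment over all genes tested, R 4.3.3), and called at an adjusted p under 0.05. SE was the log2 change over the square root of F. The clock index is a score of 6 clock genes, and livers under 0.5 form the early phase. Alternatives were DESeq2 1.42.0, limma 3.58.1 (voom), other scalings and filters, the clock index as a covariate, the early-phase livers, a replicate block and leaving out each liver. Named genes were the 15 largest rises and 15 largest falls among called genes whose groups did not overlap, up to 5 called members of each list by size of change (both with a median of at least 1 RPKM in the higher group), each list's defining genes and the 10 most counted genes. *Acadm*, *Anln*, *Cyp4a12b*, *Dgat1*, *Ebp*, *Elovl2*, *Fam64a*, *Hal*, *Hmgcs1*, *Hspd1*, *Hspe1*, *Insig2*, *Krt20*, *Nr1h3*, *Psme1*, *Psme2* and *Scap* fall outside it and were chosen after their values were seen. Members and lists were chosen with earlier results of these data known. The script was tested on simulated counts for the 16987 genes of this comparison, where 92 of 110 genes changed by 2 on the log2 scale and 48 of 90 changed by 1 were recovered, with 1 false call. Each liver had 44587556 to 79773163 counts. Promoter windows are from RefSeq (GRCm38.p6), gene coordinates from the deposited table, and a match on either strand was counted. Some genes are not reported here.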

Additional observations from a re-analysis of the deposited data

Results flagged for a closer look

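For each named gene and group, the gap between the highest or lowest liver and its nearest neighbour was divided by the range of the group and compared with Dixon's critical value at 95%. Of 350 groups 36 passed. About 1 in 20 would pass by chance only if values were normally distributed and independent, whereas these genes share the same livers. Some genes were also chosen after their values were seen, so the count is not set against chance. Each value is given below as the gap over the range, with the RPKM of that liver and of the others of its group.

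Control liver 1 was the highest for *Gm39583* at 0.335 RPKM (others 0 to 0.0443 RPKM, gap 0.850). Control liver 1 was the lowest for *Nsdhl* at 1.93 RPKM (others 2.43 to 2.61 RPKM, gap 0.751). Control liver 5 was the highest for *Gdf15* at 22.2 RPKM (others 2.82 to 5.33 RPKM, gap 0.720), *Hist1h1c* at 470 RPKM (others 27.5 to 46.3 RPKM, gap 0.820) and *Hspb1* at 43.6 RPKM (others 14.7 to 18.6 RPKM, gap 0.785). Control liver 5 was further highest for *Mpo* at 0.766 RPKM (others 0.00650 to 0.154 RPKM, gap 0.757), *Psmb10* at 26.6 RPKM (others 15.5 to 18.1 RPKM, gap 0.718) and *Srebf1* at 21.9 RPKM (others 7.87 to 10.4 RPKM, gap 0.738). Control liver 5 was the lowest for *ENSMUSG00000074373.6* at 197 RPKM (others 1324 to 2810 RPKM, gap 0.716), *ENSMUSG00000111282.1* at 25.2 RPKM (others 163 to 346 RPKM, gap 0.711) and *Il6ra* at 12.6 RPKM (others 17.5 to 19.8 RPKM, gap 0.721). Control liver 6 was the highest for *Cyp4a12b* at 3.31 RPKM (others 1.31 to 1.56 RPKM, gap 0.837). Control liver 6 was the lowest for *Socs3* at 5.96 RPKM (others 9.63 to 10.7 RPKM, gap 0.808). Control liver 7 was the highest for *Asns* at 0.821 RPKM (others 0.162 to 0.227 RPKM, gap 0.879), *Cyp2b9* at 93.4 RPKM (others 0.810 to 3.92 RPKM, gap 0.747) and *Psat1* at 1.07 RPKM (others 0.0731 to 0.244 RPKM, gap 0.775). Control liver 7 was the lowest for *Arntl* at 0.980 RPKM (others 2.98 to 3.64 RPKM, gap 0.820), *C3* at 1730 RPKM (others 2116 to 2142 RPKM, gap 0.943) and *Cdkn1a* at 3.80 RPKM (others 22.8 to 39.3 RPKM, gap 0.753). Control liver 7 was further lowest for *G0s2* at 206 RPKM (others 386 to 494 RPKM, gap 0.718) and *Otc* at 54.3 RPKM (others 64.8 to 66.3 RPKM, gap 0.885). Pre-metastatic liver 2 was the highest for *Krt23* at 0.831 RPKM (others 0.0808 to 0.223 RPKM, gap 0.766). Pre-metastatic liver 5 was the highest for *Glul* at 302 RPKM (others 206 to 248 RPKM, gap 0.515) and *Lhpp* at 29.8 RPKM (others 14.9 to 19.9 RPKM, gap 0.582). Pre-metastatic liver 6 was the highest for *Anln* at 1.03 RPKM (others 0.159 to 0.315 RPKM, gap 0.776), *Cyp17a1* at 6.10 RPKM (others 0.509 to 1.74 RPKM, gap 0.615) and *Got1* at 176 RPKM (others 15.1 to 33.2 RPKM, gap 0.685). Pre-metastatic liver 6 was further highest for *Krt20* at 1.31 RPKM (others 0.00925 to 0.176 RPKM, gap 0.816), *S100a4* at 34.6 RPKM (others 2.83 to 7.05 RPKM, gap 0.666) and *Timp1* at 6.58 RPKM (others 0.982 to 2.21 RPKM, gap 0.641). Pre-metastatic liver 6 was the lowest for *Cyp4a12a* at 1.48 RPKM (others 31.4 to 152 RPKM, gap 0.623) and *Hsd3b5* at 3.68 RPKM (others 36.2 to 280 RPKM, gap 0.506). Pre-metastatic liver 7 was the highest for *Fgf21* at 30.1 RPKM (others 0.811 to 4.90 RPKM, gap 0.585) and *Hspa5* at 1162 RPKM (others 261 to 473 RPKM, gap 0.602). Pre-metastatic liver 7 was the lowest for *Cps1* at 169 RPKM (others 357 to 683 RPKM, gap 0.535). Pre-metastatic liver 8 was the highest for *Scap* at 42.8 RPKM (others 22.2 to 30.2 RPKM, gap 0.531).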

How the results depend on the processing

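The total of 3009 higher and 2261 lower genes ranged from 2501 to 2986 higher and 1759 to 2316 lower with 1 liver left out. Other settings gave 3397 and 2589 (DESeq2), 2702 and 2394 (limma-voom), 3125 and 2062 (upper quartiles), 2377 and 2796 (library totals), 2729 and 1933 (no filter) and 2535 and 2042 (10 counts in all 14 livers). In none of these was a called gene called in the other direction. Mouse numbers 1, 4, 5, 6 and 7 occur in both groups. Deviations of same-numbered livers correlated at -0.117 to 0.0857, no pair was over 0.1, and 1 of 5 control livers correlated best with its own number. So few pairs cannot show whether same-numbered livers shared a day or batch, and the labels do not say. With the replicate block over these 10 livers 2088 genes were higher and 1376 lower, against 2618 and 1774 in the same livers without the block. *Cyp2b9* changed by 1.86 within the early phase (adjusted p = 0.0209) and by 3.18 without control liver 7 (adjusted p = 0.00918), against -0.24 over all livers, its change running from -0.72 to 3.18 and its adjusted p from 0.00918 to 0.954 over the livers left out. *Fgf21* changed by -1.28 under DESeq2 (adjusted p = 0.0398) against 0.09, and the cause was not tested. Where a list above had 0 calls in a direction by edgeR's quasi-likelihood test, an unadjusted p under 0.05 gave at most 2 members, DESeq2 at most 1 and limma-voom at most 2. Genes under 1 RPKM have few counts, so that their changes are the least precise.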

Other observations

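Outside the pathways above, histone genes were lower in 10 of 28, or in 6 without control liver 5 and in 6 within the early phase. *Hist1h1c*, a linker histone, was at 470 RPKM in control liver 5 and at 27.5 to 46.3 RPKM in the other 4 control livers. Immunoglobulin and T cell receptor V segments were higher in 15 of 70 (21.4%) and lower in 0, beside 17.7% and 13.3% of all genes. Their median log2 change was 1.75, beside 0.01 over all genes. As said above, the count minimum is met more easily by genes that are high in pre-metastatic liver.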
